A study of Homo sapiens with 12 samples.

Results

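NOX4 silencing at 20% oxygen was described from 6 of the 12 RNA libraries of the series, all from BCPAP cells, an established line from a human papillary thyroid cancer. Of these, 3 came from cells given an siRNA against NOX4 (siNOX4) and 3 from cells given a scrambled siRNA (siControl), and both groups were cultured at 20% oxygen (normoxia). Libraries were chosen by their labelled siRNA and oxygen level, and per the labels each replicate was a transfection of its own. The other 6 libraries, 3 siControl and 3 siNOX4 at 1% oxygen (hypoxia), served to estimate the spread and as a second set of cultures. The labels do not say whether cultures of the same number at 20% and 1% oxygen came from the same transfection. The number of siRNA sequences used against NOX4 is not given in the sources at hand, and the groups compare 1 labelled reagent with 1 scrambled control in 1 cell line. The question put to these libraries was which gene differences hold against each siControl library taken alone.

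NOX4 is a membrane enzyme that passes electrons from NADPH to oxygen and, with its partner CYBA (p22phox), releases mainly hydrogen peroxide. Some other NADPH oxidases need cytosolic activators, while NOX4 is active once made, so its amount is held to set its output. In thyroid cells it is found beside the dual oxidases DUOX1 and DUOX2, which supply the peroxide for hormone synthesis.

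The 3 siControl libraries did not resemble each other equally. Correlations of log2 CPM (library-scaled counts) between libraries were 0.951 to 0.987 within siControl normoxia, 0.987 to 0.989 within siNOX4 normoxia and 0.989 to 0.992 in the hypoxia groups. Replicates 1 and 3 of siControl normoxia stood apart from replicate 2, which lay near the siNOX4 libraries, so results are given against each of the 3. Summed counts of the 6 libraries were 16559386 to 17752290. Of the cell type check, the thyroid factor PAX8 (457 to 1735 CPM), the factor NKX2-1 (43.3 to 142 CPM) and the keratin KRT7 (431 to 714 CPM) were present in the normoxia libraries. The hormone synthesis genes TG, TSHR and SLC5A5 stood at or near 0 there, and IYD was at 0 in all 12 libraries. The epithelial cadherin CDH1 was at 0 in the 6 normoxia libraries. The summed thyroid list of 18 genes was 1991, 759 and 1871 CPM in siControl replicates 1 to 3 and 683 to 772 CPM with siNOX4. The 6 epithelial markers summed to 892, 1338 and 906 CPM and to 1278 to 1424 CPM, and the 6 endothelial markers to 44.9, 31.5 and 41.6 CPM and to 38.9 to 41.9 CPM. The 13 fibroblast and mural entries summed to 125, 99.2 and 107 CPM with siControl and to 90.9 to 99.3 CPM with siNOX4. The 6 leukocyte markers summed to 7.73, 1.30 and 6.21 CPM and to 1.53 to 2.35 CPM. In the thyroid, endothelial, epithelial, and fibroblast and mural lists the members did not all move together. PAX8 had 1735, 533 and 1640 CPM with siControl and 457 to 551 CPM with siNOX4, while NKX2-1 had 43.3, 136 and 46.8 CPM and 131 to 142 CPM. PECAM1, an endothelial marker, had 30.6, 2.66 and 22.2 CPM with siControl and 2.20 to 3.63 CPM with siNOX4. TIE1, another, had 11.2, 26.9 and 15.4 CPM and 32.6 to 37.3 CPM. The part of the list sums in the results was not tested. In such bulk RNA, fewer cells of a kind and less RNA per cell cannot be told apart.

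The targeted gene was read at the edge of detection. NOX4 (ENSG00000086991, GRCh38 chr11:89324356-89498187, minus strand) was counted 8, 13 and 6 times in siControl replicates 1 to 3 and 1, 5 and 3 times in the siNOX4 libraries. Every siNOX4 count lay below every siControl count, by 1 read at the closest pair. Relative to library size, the siNOX4 level was 40.3% of siControl replicate 1 (exact 95% interval 13.8% to 120%), 23.7% of replicate 2 (8.93% to 59.8%) and 52.1% of replicate 3 (16.5% to 178%). These intervals cover counting error only, and of the single libraries only replicate 2 gave an interval that excluded 100%. Against the 3 siControl libraries together the level was 34.9% (14.4% to 76.4%). An exact two-sided permutation test over the 6 libraries gave p = 0.1, the smallest that 3 against 3 allows. Fitted together with all other genes, NOX4 had a log2 fold change of −1.48 (SE 0.57, edgeR adjusted p = 0.0826). NOX4 was thus not called, and its fold change against siControl replicate 2 was −2.04 (adjusted p = 0.699).

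The partners of NOX4 were far more abundant than NOX4 itself. By the authors' FPKM, which divide by gene length, CYBA averaged 76.7 over the 6 libraries and NOX4 0.0600. Of 20 genes of NADPH oxidases and their partners, 13 passed the filter on low counts, and in a fit with 1 mean per siRNA and oxygen level (the 4-group fit) 1 was called higher and 2 lower, where 3.97% of all tested genes were called higher and 11.0% lower. RAC1, a small GTPase that activates other oxidases, had 190, 248 and 192 CPM with siControl and 264 to 294 CPM with siNOX4 (log2 fold change 0.40, SE 0.11, adjusted p = 0.0354). POLDIP2, which binds the NOX4 complex, had 127, 71.5 and 116 CPM against 68.5 to 73.6 CPM. Against siControl replicate 2 alone the log2 fold changes were 0.16 for RAC1 and 0.01 for POLDIP2, and neither was called. CYBA had 221, 311 and 167 CPM with siControl and 267 to 303 CPM with siNOX4, with overlapping groups. The median of the 13 genes was −0.95, −0.06 and −0.69 against siControl replicates 1, 2 and 3, where the median of all tested genes was 0.00, 0.01 and 0.00. DUOX1 was counted 74, 48 and 50 times with siControl and 31 to 40 times with siNOX4. DUOX2 was counted 13 times or fewer per library, and the phagocyte oxidase CYBB was at 0 in the 6 libraries.

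Few gene differences held against every siControl library. In the 4-group fit, 686 of 17277 tested genes (3.97%) were called higher and 1907 (11.0%) lower with siNOX4. When each siControl library was given a term of its own, 8273 genes (47.9%) were called against replicate 1, 3997 of them higher, and 8245 (47.7%) against replicate 3, 3915 of them higher. Against replicate 2 there were 11 calls (0.0637%), 7 higher and 4 lower. Only 8 genes (0.0463%) were called in the same direction against all 3 libraries, and all 8 were also called in the 4-group fit. Higher with siNOX4 were TPM4, STX12, ZNF267, GANAB, MME and NOLC1, and lower were AKAP1 and PIGS. Each lone library was assumed to vary like the other groups, and the 3 contrasts share the siNOX4 libraries, so they are not independent. The contrast against replicate 2 is also the result without replicates 1 and 3.

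**Figure D1:**
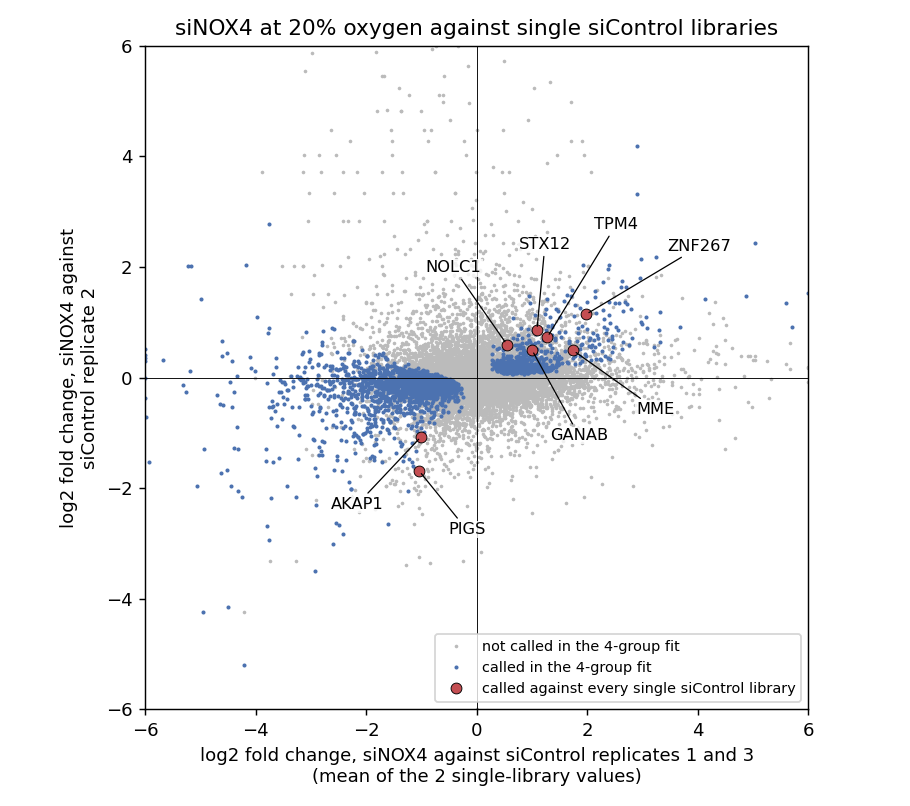
Each point is a gene, with the log2 fold change of siNOX4 against siControl replicate 2 (vertical) and the mean of the log2 fold changes against replicates 1 and 3 (horizontal). The 8 genes called against every single library (red) lie away from 0 on both axes, while most genes called in the 4-group fit (blue) lie along the horizontal axis, and 13 genes beyond 6 log2 units are drawn at the edge.

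Called with the same sign against both replicates 1 and 3 were 6575 genes, of which 2579 had the opposite sign against replicate 2. Between replicates 1 and 3, 5 genes were called with opposite signs. The spread of fold changes followed the same order. The SD of the log2 fold change over all tested genes was 1.04 against replicate 1, 0.54 against replicate 2 and 1.04 against replicate 3, and genes that differed at least 2-fold numbered 3837, 917 and 3846. Over all tested genes, 8439 (48.8%) had the same direction against the 3 libraries. Among the 2593 genes of the 4-group fit the same direction was found for all 686 called higher and for 1557 of the 1907 called lower, and 317 of the 2593 differed at least 1.5-fold from every single library.

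Promoter sequence is shown for 4 of the 8 genes, those with a RefSeq window that begins ahead of the gene's start in GENCODE 29, so that a reader can see what lies before genes that moved in opposite directions. Each run is the 250 bases before a RefSeq start (GRCh38.p14), written 5′ to 3′ on the gene's strand, with motif matches in capitals. AKAP1, the gene that fell, is at chr17:57084996-57085245, plus strand, the first of 3 RefSeq windows of that gene. STX12 is at chr1:27772969-27773218, plus strand, ZNF267 at chr16:31873557-31873806, plus strand, and GANAB at chr11:62646614-62646863, minus strand, and these 3 genes rose.
AKAP1: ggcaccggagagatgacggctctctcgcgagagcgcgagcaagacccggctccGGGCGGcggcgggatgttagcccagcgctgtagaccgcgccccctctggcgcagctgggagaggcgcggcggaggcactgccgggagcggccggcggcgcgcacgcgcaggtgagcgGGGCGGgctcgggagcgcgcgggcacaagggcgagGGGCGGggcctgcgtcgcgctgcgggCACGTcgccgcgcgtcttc
STX12: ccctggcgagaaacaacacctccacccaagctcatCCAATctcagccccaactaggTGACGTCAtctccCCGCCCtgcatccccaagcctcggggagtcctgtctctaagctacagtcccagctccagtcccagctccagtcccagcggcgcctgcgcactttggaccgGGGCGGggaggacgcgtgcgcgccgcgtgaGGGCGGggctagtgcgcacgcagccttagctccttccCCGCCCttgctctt
ZNF267: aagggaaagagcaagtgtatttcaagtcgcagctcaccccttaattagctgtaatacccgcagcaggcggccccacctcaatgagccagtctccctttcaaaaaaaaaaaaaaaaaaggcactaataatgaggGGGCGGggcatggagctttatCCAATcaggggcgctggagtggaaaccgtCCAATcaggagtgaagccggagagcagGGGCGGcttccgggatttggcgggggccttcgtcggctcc
GANAB: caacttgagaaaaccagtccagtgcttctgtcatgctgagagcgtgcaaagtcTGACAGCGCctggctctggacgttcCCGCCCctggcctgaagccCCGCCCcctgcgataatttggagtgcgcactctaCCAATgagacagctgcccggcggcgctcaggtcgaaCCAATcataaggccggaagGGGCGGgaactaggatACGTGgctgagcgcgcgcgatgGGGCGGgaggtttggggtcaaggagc
Of the 250 bases, 96 in AKAP1, 214 in STX12, 201 in ZNF267 and 137 in GANAB lie ahead of the GENCODE 29 start. Searched on both strands, with no overlap between different motifs in these runs, were the CCAAT box (CCAAT), the GC box (GGGCGG), the TATA box (TATAAA), the cyclic AMP response element (TGACGTCA), the AP-1 element (TGANTCA), the core of the antioxidant response element (TGACNNNGC) and the core of the hypoxia response element (ACGTG). GC boxes stood in each of the 4 runs and in 42.6% of the 35116 RefSeq windows of that length. CCAAT was matched 1 time in STX12, 2 times in ZNF267 and 2 times in GANAB, and 0 times in AKAP1, where 32.0% of windows hold it. STX12 held the 1 cyclic AMP response element, which 1.65% of windows hold. The core of the hypoxia element stood in AKAP1 and GANAB (18.5% of windows), that of the antioxidant element in GANAB (10.9%), and TATAAA (10.7%) and TGANTCA (6.57%) in none of the 4. These are matches of letters in a window and nothing was measured of what binds there. The RefSeq windows of PIGS, TPM4 and MME begin inside the gene of GENCODE 29 and are not shown, and NOLC1 had no window. In those not shown, CCAAT was matched 2 times in PIGS, which fell, and 0 times in the 3 windows of TPM4, which rose. The 4 windows of MME, which rose, held it 1 time. GC boxes were matched 0 times in PIGS.

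Among the genes that held, AKAP1 had the steadiest controls. AKAP1 (chr17:57085092-57121349, plus strand) encodes an anchoring protein that ties protein kinase A and messenger RNAs to the outer mitochondrial membrane. It had 103, 109 and 106 CPM in siControl replicates 1 to 3 and 50.5, 50.5 and 54.9 CPM with siNOX4. The groups lay far apart and neither was spread, and siNOX4 reached 49.1% of the siControl mean. The log2 fold changes were −0.98, −1.07 and −1.03 against the 3 libraries (SE 0.09 each, edgeR adjusted p = 1.7e-08, 8.9e-07 and 8.9e-09), and −1.03 in the 4-group fit (SE 0.07, adjusted p = 1.0e-04). PIGS (chr17:28553383-28571872, minus strand) encodes a subunit of the transamidase that attaches glycosylphosphatidylinositol anchors to proteins in the endoplasmic reticulum. It had 17.1, 26.9 and 17.3 CPM with siControl and 7.50, 8.85 and 8.64 CPM with siNOX4. Replicate 2 was the highest siControl library, so this fall was larger against the library nearest to siNOX4 in other genes (−1.69, SE 0.13) than against replicate 1 (−1.03, SE 0.14) or 3 (−1.05, SE 0.14). The largest of the 3 adjusted p-values was 5.5e-06.

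The rises included cytoskeletal and membrane traffic genes. STX12 (chr1:27773183-27824452, plus strand), a syntaxin that serves vesicle fusion at recycling endosomes, had 21.8, 26.1 and 22.7 CPM with siControl and 49.4, 46.9 and 45.9 CPM with siNOX4. No siNOX4 library came near a siControl library, and the log2 fold changes of 1.12, 0.86 and 1.06 (SE 0.11 each) were close to each other, with a largest adjusted p of 0.00115. TPM4 (chr19:16067021-16103005, plus strand), a tropomyosin that coats actin filaments, was the most abundant of the 8 in CPM, at 628, 1021 and 777 CPM with siControl and 1734, 1711 and 1629 CPM with siNOX4. Its siControl libraries differed more from each other than its siNOX4 libraries, with replicate 2 highest. The log2 fold changes were 1.43, 0.73 and 1.12 (SE 0.10, 0.09 and 0.10, largest adjusted p = 0.00115). ZNF267 (chr16:31873758-31917357, plus strand), a zinc finger protein, had 4.37, 10.0 and 7.25 CPM with siControl and 23.1, 22.4 and 20.9 CPM with siNOX4. It had the largest rise of the 8 against replicates 1 and 2, with log2 fold changes of 2.34, 1.14 and 1.61 (SE 0.19, 0.17 and 0.17) and a largest adjusted p of 0.00468.

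The other genes that held were GANAB, MME and NOLC1, with smaller differences against at least 1 library. GANAB (chr11:62624826-62646726, minus strand), the catalytic subunit of glucosidase II, trims glucose from N-glycans of new proteins in the endoplasmic reticulum. It had 223, 323 and 235 CPM with siControl and 470, 458 and 444 CPM with siNOX4, and its log2 fold change was 0.50 against replicate 2 (SE 0.08, adjusted p = 0.0189) and 1.04 and 0.96 against replicates 1 and 3. MME (chr3:155024124-155183729, plus strand), or neprilysin, a peptidase of the cell surface, had 71.1, 166 and 68.3 CPM with siControl and 235, 246 and 219 CPM with siNOX4. Its controls were the most spread of the 8, and its log2 fold change of 1.72 against replicate 1 and 1.77 against replicate 3 stood at 0.49 against replicate 2 (SE 0.09, adjusted p = 0.0439). NOLC1 (chr10:102152176-102163871, plus strand), a phosphoprotein of the nucleolus, had 136, 142 and 157 CPM with siControl and 212, 206 and 224 CPM with siNOX4. Its controls were close together, and the log2 fold changes of 0.65, 0.60 and 0.44 (SE 0.09 each) passed against all 3, with a largest adjusted p of 0.00909 against replicate 2. Reads from genes on the opposite strand could add little to the 8 genes, since the most counted such gene had 0.47% of the counts of its partner (TPM4). STX12 and PIGS also overlap genes on their own strand (AL020997.2 and AL020997.3, and AC005726.1), and the counts of these were not compared. The sources used here do not state the counting of reads that match several genes, which bears on TPM4 and ZNF267, members of families with close copies.

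**Figure D2:**
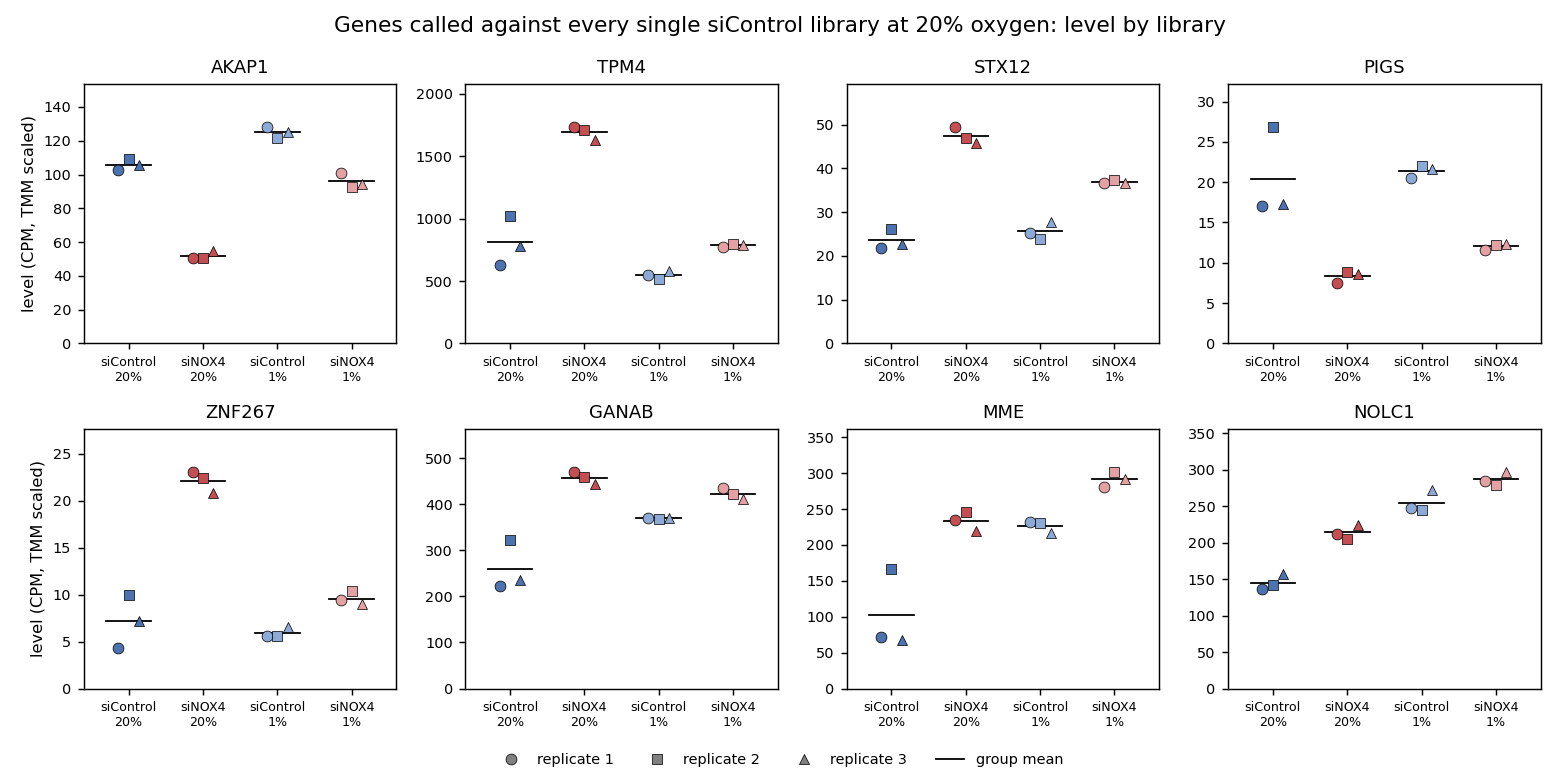
Level in CPM (vertical axis, from 0) of the 8 genes in each of the 12 libraries, by siRNA and oxygen level, with marker shapes for the replicate number and a line for the group mean. At 20% oxygen no siNOX4 library overlaps a siControl library, and replicate 2 (square) is the siControl library nearest to siNOX4 for TPM4, STX12, ZNF267, GANAB and MME, and the farthest for PIGS and AKAP1.

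The calls were not equally stable. Over 20 alternatives (scaling, filter, test, a replicate block, the normoxia libraries alone and each of the 12 libraries left out), AKAP1, TPM4, STX12, PIGS, ZNF267 and NOLC1 were called against every siControl library in the fit each time. GANAB was called in 15 and MME in 14, and both lost the call without siNOX4 normoxia replicate 1 or 2 and without siControl hypoxia replicate 1 or 2. The hypoxia libraries entered the spread, the filter and the scaling, but not the contrast itself. Without siControl normoxia replicate 2 the count of such genes, then against replicates 1 and 3, was 6733. When the largest of the 3 p-values of each gene was adjusted over all tested genes, 6 genes were called, with GANAB (adjusted p = 0.0248) but without MME (0.0689) and NOLC1 (0.195). With at least 1.5-fold required in each contrast 5 genes were left, namely AKAP1, PIGS, TPM4, STX12 and ZNF267. In the 4-group fit, which counts the spread among the siControl libraries, AKAP1 and STX12 were called whichever of the 12 libraries was left out. That fit had 2 calls in all without siNOX4 normoxia replicate 1 and 2 without replicate 2, in each case these genes, and with the 6 normoxia libraries alone it had 0. In the authors' deposited table the adjusted p of this comparison was 1.0e-09 for AKAP1, 3.6e-06 for STX12, 2.0e-04 for ZNF267, 3.1e-04 for TPM4, 8.1e-04 for PIGS, 0.00467 for GANAB, 0.00813 for NOLC1 and 0.0168 for MME.

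The choice of these genes used the hypoxia libraries for the spread, the filter and the scaling, but not their siNOX4 difference. All 8 genes had the same sign there, and 6 of them were among the 18 genes (0.104%) called at 1% oxygen in the same fit. The same spread of each gene served the choice and the 1% calls, so these are not independent. The 1% comparison was added after the data were seen. AKAP1 had 128, 121 and 125 CPM with siControl and 101, 92.7 and 94.1 CPM with siNOX4 at 1% oxygen, a log2 fold change of −0.38 (SE 0.06, edgeR adjusted p = 0.0204). PIGS had 20.5, 22.0 and 21.6 CPM against 11.6, 12.3 and 12.4 CPM (−0.82, SE 0.10, adjusted p = 7.9e-04), and TPM4 had 550, 519 and 583 CPM against 776, 799 and 788 CPM (0.52, SE 0.06, adjusted p = 0.00102). The groups of these 3 genes did not overlap. STX12 had 25.2, 23.9 and 27.8 CPM against 36.5, 37.2 and 36.6 CPM (0.52, SE 0.07, adjusted p = 0.0067), and ZNF267 had 5.64, 5.64 and 6.56 CPM against 9.39, 10.4 and 8.96 CPM (0.68, SE 0.12, adjusted p = 0.0299). MME had 231, 231 and 216 CPM against 281, 301 and 292 CPM (0.37, SE 0.06, adjusted p = 0.0247). For these genes too no library of one siRNA reached those of the other. GANAB (0.19, SE 0.06, adjusted p = 0.248) and NOLC1 (0.17, SE 0.06, adjusted p = 0.368) were not called. In the 4-group fit no gene was called at 1% oxygen. At an unadjusted p under 0.05 it held 448 of 17277 genes, where a share of 0.05 is expected without any difference. A fit of the hypoxia libraries alone called 8 genes, 5 of them among those described here, without ZNF267 (edgeR adjusted p = 0.0867).

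**Figure D3:**
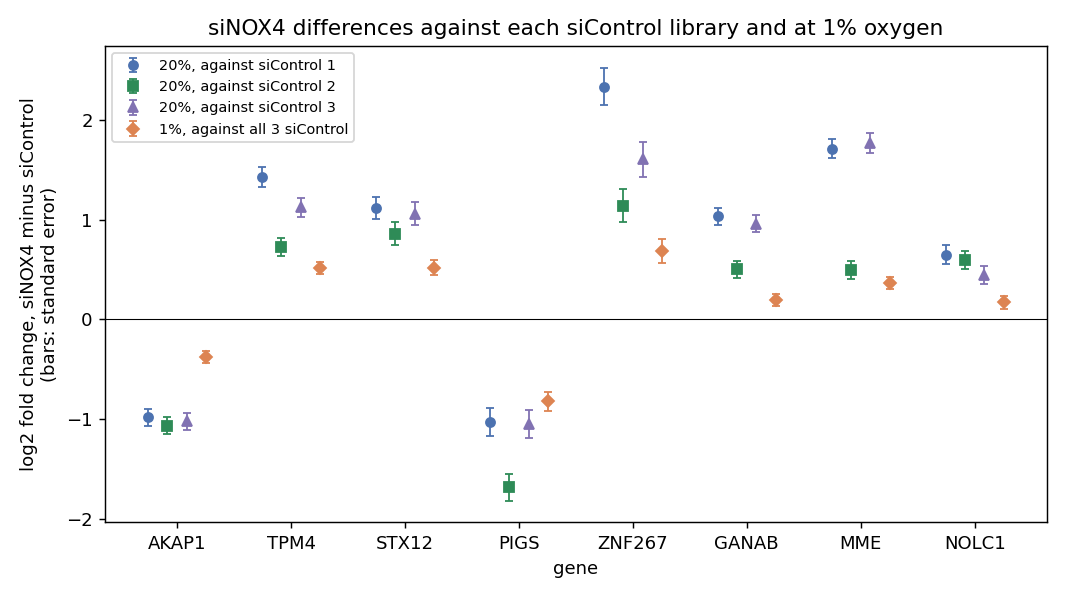
Fitted log2 fold change of siNOX4 against siControl (vertical axis, bars are 1 standard error) for the 8 genes, against each siControl library at 20% oxygen and against the siControl group at 1% oxygen. Each gene keeps its sign in the 4 estimates, and the 1% value (orange) lies nearest to 0 in all 8. The genes were chosen by their 20% estimates, so the shared sign there was fixed and those sizes can run high.

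The fitted difference in AKAP1 was larger at 20% than at 1% oxygen. AKAP1 was chosen by its 20% estimates, so those sizes, and with them this comparison, can run large. The log2 fold change at 20% minus that at 1% was −0.60, −0.69 and −0.65 with siControl normoxia replicate 1, 2 or 3 as the control (edgeR adjusted p = 1.6e-04, 0.0306 and 7.5e-05). For the other 7 genes this difference was not called against all 3 libraries. In the 4-group fit the difference was not called for AKAP1 (adjusted p = 0.159). Of the 18 genes called at 1% oxygen, 13 had that same direction against every siControl library at 20% oxygen. Of all 17277 tested genes, 8439 had 1 direction against the 3 libraries, and 4617 of these had that sign at 1% oxygen. The 13 include 6 genes described above, which had been chosen for 1 direction at 20% oxygen. Among the genes called at 1% oxygen that did not pass against every library was G3BP2, a stress granule protein (0.91, 0.39 and 0.80 at 20% oxygen, 0.35 at 1%). The focal adhesion protein LPP (0.98, 0.31 and 0.66, and 0.42) was among them too. SRD5A1, a steroid reductase (−0.27, −0.52 and −0.05, and −0.39), was another. These genes were chosen after their values were seen.

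Of the 11 genes called against siControl replicate 2, 3 did not hold. SAP30L, a subunit of a histone deacetylase complex, was higher against replicates 2 and 3 (log2 fold change 0.57 and 0.36) and missed the call against replicate 1 (0.21, adjusted p = 0.0797). MAGED1 turned direction, with 0.36 and 0.64 against replicates 1 and 3 and −0.63 against replicate 2. PWP2, a factor of ribosome assembly, was lower against replicates 2 and 3 (−3.39 and −2.40) and stood at −0.16 against replicate 1. At the other side of the threshold, CLDN15 and PRDX4 had 1 direction against the 3 libraries and were called against replicates 1 and 3, but not against replicate 2 (adjusted p = 0.100 and 0.102).

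A second reading used no model of the spread, only the gap between the closest libraries of the groups on the log2 CPM scale. The 6 libraries did not overlap between the siRNAs for 3863 genes (22.4%), 1925 higher and 1938 lower with siNOX4. The gap was at least 1.5-fold for 148 genes (0.857%), 61 higher and 87 lower. Among protein-coding genes with at least 5 CPM in the higher group, the widest gaps upward were those of ZNF267 (1.05 log2 units), STX12 (0.81) and TPM4 (0.67). PDCL3, a chaperone of the phosducin family, followed with 7.68, 7.36 and 7.61 CPM against 12.5, 11.6 and 12.1 CPM and a gap of 0.59. Its controls were close together, yet at this count its log2 fold change against replicate 2 (0.71) was not called (adjusted p = 0.365). ANXA4, a membrane-binding annexin, had a gap of 0.52, the potassium channel subunit KCNS3 0.51 and MAP3K7CL 0.48. CCDC144NL (0.47), PRDX4 (0.46) and GANAB (0.46) closed the 10. ANXA4 and CCDC144NL share their place with genes on the opposite strand that had more counts, AAK1 and CCDC144NL-AS1, and the counting is not stated to use strand.

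Downward, the widest gaps were those of PIGS (−0.94) and AKAP1 (−0.90). SPINK1, a secreted trypsin inhibitor, had 9.68, 6.62 and 6.46 CPM with siControl and 3.94, 3.40 and 3.81 CPM with siNOX4, a gap of −0.70. CLDN15, a claudin of tight junctions, had 12.9, 11.6 and 14.4 CPM against 6.74, 7.12 and 6.29 CPM, a gap of −0.69. Neither overlapped, and at 1% oxygen SPINK1 had a log2 fold change of −1.14 (adjusted p = 0.0506) and CLDN15 one of 0.27 (adjusted p = 0.381). The potassium channel KCNJ2 and the myosin MYO7A both had a gap of −0.67, but MYO7A had 18.0 and 16.5 CPM in siControl replicates 1 and 3 and 0.804 CPM in replicate 2. The homeobox gene PRRX1 (−0.59), CYREN (−0.55), a regulator of DNA end joining, the carbonic anhydrase CA2 (−0.55) and the kinase ICK (−0.55) completed the 10. CYREN and ICK overlap better counted genes on the opposite strand, TMEM140 and FBXO9. CA2 had 7.50, 7.73 and 7.49 CPM with siControl and 4.83, 4.46 and 5.08 CPM with siNOX4, so here too the 3 controls stood together. Of the 148 genes, 90 (60.8%) had the same sign at 1% oxygen, against 52.9% of all tested genes taken by their sign against replicate 2. The share was 68.9% for the genes higher with siNOX4 and 55.2% for those lower.

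Gene lists for the pathways around NOX4 were read in the same way. The 27 lists held 470 distinct tested genes, of which 24 (5.11%) were called higher and 53 (11.3%) lower in the 4-group fit, near the 3.97% and 11.0% of all tested genes. Called in either direction were 284 against replicate 1 and 293 against replicate 3. Against replicate 2, 0 were called by edgeR, where 0.0637% of all tested genes were, so no list member held. Over the 23 lists that are not cell type markers, the list medians ran from −1.71 to 0.78 against replicate 1 and from −2.04 to 0.81 against replicate 3. Against replicate 2 they ran from −0.23 to 0.08. Lists are described here by counts and medians, without a test of the list, and the counts of calls below stand against the same shares of 3.97% higher and 11.0% lower.

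Peroxide handling is the list nearest to the product of NOX4. Of 21 peroxide and superoxide scavenging genes, 4 were called higher in the 4-group fit and 0 lower, and the list median was 0.22, 0.05 and 0.38 against replicates 1, 2 and 3. PRDX4, the peroxiredoxin of the endoplasmic reticulum, had 18.3, 43.4 and 16.8 CPM with siControl and 68.3, 59.9 and 69.3 CPM with siNOX4. All siNOX4 libraries lay above all siControl libraries, with a gap of 0.46 log2 units at the closest pair. The log2 fold change of PRDX4 was 0.60 against replicate 2 (SE 0.12), without a call, and 1.85 and 1.97 against the others. PRDX6 (0.70, 0.16 and 0.53), a peroxiredoxin that also acts on lipids, and thioredoxin, TXN (0.60, 0.14 and 0.55), were called in the 4-group fit as well. GPX4, which reduces lipid peroxides, was not called and had 406, 540 and 350 CPM against 491 to 539 CPM. Of 18 genes of oxidative folding in the endoplasmic reticulum 2 were called higher, PRDX4 and the oxidase ERO1A (1.10, 0.12 and 1.11), while P4HB was not called. Of 22 NRF2 targets 0 were called higher and 7 lower. The aldo-keto reductase AKR1C2 had 575 and 508 CPM in siControl replicates 1 and 3, 3.46 CPM in replicate 2 and 3.50 to 5.13 CPM with siNOX4. Against replicate 2 its log2 fold change was thus 0.30 instead of −7.08 and −6.90. AKR1C1 (−0.26) and ME1 (0.12), a source of NADPH, were also near 0 against replicate 2, and ferritin FTH1 was not called (0.00 in the 4-group fit).

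Among the lists of energy metabolism, the glycolysis median lay well above 0 against replicates 1 and 3 and near 0 against replicate 2. Of 23 genes of glycolysis and lactate export, 0 were called in the 4-group fit, and the median was 0.74, −0.03 and 0.81 against the 3 libraries. ENO1, the most abundant, had 4975, 6395 and 4935 CPM with siControl and 6057 to 6183 CPM with siNOX4, inside the range of the controls. Of 27 HIF targets, genes switched on at low oxygen, 1 was called higher and 1 lower, with a median of 0.78, −0.11 and 0.63. The member called lower was VEGFA, the angiogenic factor, with 1546, 780 and 1688 CPM against 648 to 746 CPM, and −0.13 against replicate 2. The member called higher was ERO1A (1.10, 0.12 and 1.11). Of 60 nuclear genes of oxidative phosphorylation, 4 were called higher and 1 lower, and the median was 0.25, 0.06 and 0.24. In this list 38 of the 60 genes stood above all 3 siControl libraries by their fold changes, where 25.0% of all tested genes did, and 20 of the 60 did not overlap and were higher (11.1% of all tested genes). Of the complex I subunits, NDUFS6 had a log2 fold change of 0.26 against replicate 2 and NDUFS1 one of −0.13. At 1% oxygen the median of the list was −0.12. Of 13 mitochondrially encoded mRNAs 0 were called, and of 31 mitochondrial ribosomal genes 2 were called higher and 2 lower, with a median of 0.03, 0.05 and 0.05.

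**Figure D4:**
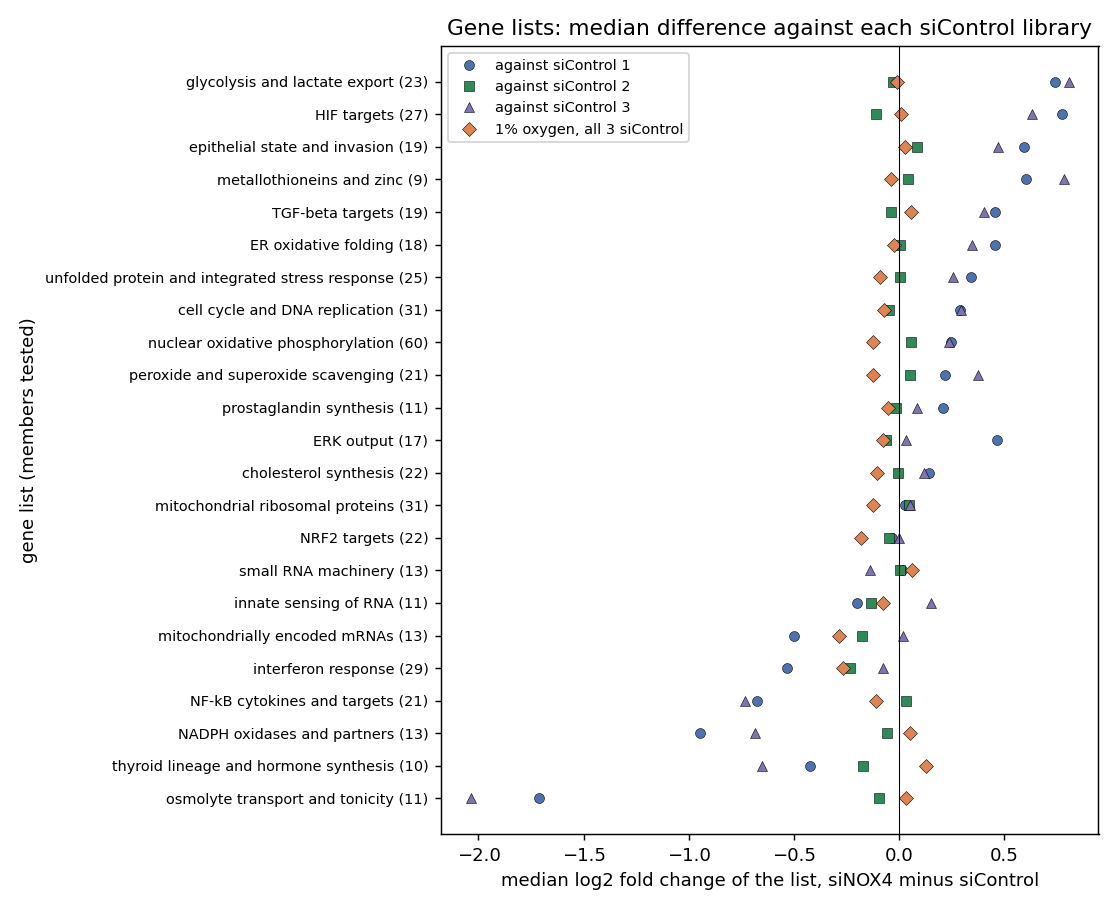
Median log2 fold change of siNOX4 against siControl (horizontal axis) for the 23 gene lists that are not cell type markers, with the number of tested members in brackets, against each siControl normoxia library and at 1% oxygen. Against siControl replicate 2 (squares) and at 1% oxygen (diamonds) the medians lie between −0.28 and 0.13, while those against replicates 1 and 3 spread from −2.04 to 0.81.

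Interferon response genes had the lowest list median against replicate 2. Of 29 tested members 1 was called higher and 8 lower in the 4-group fit, and the median was −0.53, −0.23 and −0.08 against the 3 libraries and −0.27 at 1% oxygen. Below all 3 siControl libraries by their fold changes were 14 of the 29, where 23.8% of all tested genes were. IFIT3, an antiviral protein that binds foreign RNA with its relatives, had 33.4, 15.3 and 29.1 CPM with siControl and 12.1, 12.4 and 10.9 CPM with siNOX4. MX1, an antiviral GTPase, had 98.4, 25.7 and 102 CPM against 23.8, 19.0 and 19.5 CPM, and SAMD9 had 16.5, 3.71 and 14.8 CPM against 2.53 to 3.31 CPM. None of the 3 overlapped, and against replicate 2 they stood at −0.38, −0.31 and −0.38, without a call. IFI27 was not called (−0.19, −0.23 and 0.34). Of 11 sensors of RNA 3 were called lower, and DDX58, which detects viral RNA, was at 0.05 against replicate 2 and −2.36 and −2.30 against the others. Of 21 NF-kB cytokines and targets 1 was called higher and 9 lower, with a median of −0.67, 0.03 and −0.73. PTGS2, the inducible cyclooxygenase, had 337, 2.66 and 359 CPM with siControl and 3.50 to 4.35 CPM with siNOX4, so its log2 fold change was 0.51 against replicate 2 and −6.47 and −6.56 against the others. The cytokines TNF (−1.80, −0.27 and −2.14) and CXCL1 (−1.75, −0.17 and −1.53) were called lower in the 4-group fit, also without a call against replicate 2.

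Osmolyte transport and tonicity genes had the lowest list medians against replicates 1 and 3. Of 11 osmolyte transport and tonicity genes 8 were called lower, with a median of −1.71, −0.09 and −2.04. The betaine transporter SLC6A12 had 178, 0.495 and 160 CPM with siControl and 0.466 to 0.725 CPM with siNOX4, and the inositol transporter SLC5A3 had 5106, 624 and 5290 CPM against 557 to 620 CPM. Both were high in replicates 1 and 3 alone. Of 10 tested thyroid genes 2 were called lower, PAX8 (−1.77, −0.07 and −1.69) and CDH16 (−5.39, −0.26 and −5.15), and NKX2-1 stood at 1.64, −0.02 and 1.52. Of 25 genes of the integrated stress and unfolded protein responses 1 was called higher and 4 lower. SLC7A11, the cystine importer, was among those lower, with 52.9, 55.0 and 64.0 CPM against 41.8, 37.3 and 50.6 CPM and log2 fold changes of −0.29, −0.34 and −0.56 against the 3 libraries. Of these only that against replicate 3 was called (adjusted p = 0.00185, and 0.0915 and 0.714 against replicates 1 and 2). HSPA5, the main chaperone of the endoplasmic reticulum, was not called (0.80, 0.01 and 0.62). Of 19 TGF-beta targets 2 were called higher and 1 lower, including the matrix protein TGFBI (1.33, 0.18 and 1.31) and the receptor decoy BAMBI (−1.69, −0.15 and −1.85). Of 31 cell cycle genes 1 was higher and 2 lower, including the helicase subunit MCM3 (−0.99, −0.02 and −1.01), and of 22 cholesterol synthesis genes 1 was higher and 1 lower, including SREBF2 (−0.98, −0.19 and −0.95). Of 11 prostaglandin genes 1 was higher and 2 lower, of 9 metallothionein and zinc genes 1 and 1, and of 17 genes of ERK output 1 and 0. Of 19 genes of epithelial state and invasion 1 was called higher, KRT8 (1.03, 0.14 and 1.02), and of 13 genes of the small RNA machinery 1 lower, DGCR8 (−0.55, −0.21 and −0.45). Of the marker lists, 1 of 4 epithelial, 1 of 4 endothelial (and 1 lower), 0 of 6 fibroblast and mural and 0 of 1 leukocyte genes were called higher.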

How the data were processed

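BCPAP RNA was made into 12 libraries with an Illumina TruSeq kit and sequenced, per the labels. Whole-number counts were deposited for each gene and library. FPKM, scaled by the authors for gene length and a library total, stood beside them, per the file headers. The authors' table also holds their log2 fold changes, p-values and adjusted p-values for each comparison, deposited without the name of the test. Bowtie 0.12.2 and the mouse builds mm8 and mm9 are listed in the submitters' processing notes without a role, while all 58735 genes had the starts and ends of GENCODE 29 (GRCh38). The sources used here state neither the counter nor its strand setting. Names that were dates (12) were replaced by the GENCODE 29 names.

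Counts were fitted with edgeR 4.0.16 (R 4.3.3), TMM factors, filterByExpr by group (17277 genes left) and the quasi-likelihood F test over the 12 libraries. The 4-group fit had 8 residual degrees of freedom and a biological coefficient of variation of 0.164. The fit with 1 term for each siControl normoxia library had 6 and 0.0715. P-values were adjusted over all tested genes after Benjamini and Hochberg, and a value under 0.05 made a call. Levels are CPM after TMM scaling, and gaps use log2 CPM with a prior count of 2. Fits were run on simulated data in which, apart from genes changed on purpose in siNOX4 normoxia, all 12 libraries shared their gene means. No siControl library stood apart there, so these runs do not cover the divergence among the siControl normoxia libraries. Alternatives used DESeq2 1.42.0, limma 3.58.1 (voom), other scalings and filters, a replicate block and left-out libraries. The 1% oxygen contrast and its alternatives were added after the data were seen.

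Named were NOX4, the genes called against every siControl library, the 10 protein-coding genes per direction with the widest gap at 5 CPM or more, and, per gene list, up to 3 called members and the most abundant member not called. Other genes named were chosen after their values were seen. Some genes that these rules name are not reported here. The libraries, lists and rules were chosen with earlier results of these data known.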

Additional observations from a re-analysis of the deposited data

Results flagged for a closer look

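The fall of AKAP1 under siNOX4 was compared between oxygen levels, and the difference itself passed the test against each siControl normoxia library. The log2 fold change at 20% oxygen minus that at 1% oxygen was −0.60 with siControl normoxia replicate 1 as the control, −0.69 with replicate 2 and −0.65 with replicate 3 (edgeR adjusted p = 1.6e-04, 0.0306 and 7.5e-05). All 3 siNOX4 libraries lay below all 3 siControl libraries at each oxygen level. In the 4-group fit, which takes in the spread among the siControl normoxia libraries, the difference was not called (adjusted p = 0.159), and its cause was not tested. The 3 tests share the siNOX4 and the hypoxia libraries. AKAP1 was chosen by its 20% estimates, so those sizes, and with them this difference, can run large.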

How the results depend on the processing

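Of the counts of genes called, the 4-group fit at 20% oxygen moved most. Its 2593 calls were 4696 with no filter on low counts, 4163 with the DESeq2 test, 9 with limma-voom and 0 with only the 6 normoxia libraries, and 2 to 9866 with 1 library left out (9866 without siControl normoxia replicate 2). The calls against siControl replicate 2 alone (11) were 61 with no filter, 18 with DESeq2, 30 with only the normoxia libraries and 6 to 24 with a library left out. Those against replicates 1 and 3 were 7801 to 8962 and 7887 to 8883 with a library left out. Genes called against every single library (8) were 25 with no filter, 14 with only the normoxia libraries, 5 with at least 1.5-fold required and 6 to 6733 with a library left out, the latter without siControl normoxia replicate 2. Calls at 1% oxygen (18) were 171 with no filter, 48 with DESeq2, 0 with 1 mean per group, 8 with only the hypoxia libraries and 2 to 32 with a library left out, and of the 8 genes 0 were called there with 1 mean per group and 2 to 6 with a library left out. Gaps of at least 1.5-fold (148) numbered 27 at 2-fold and 206 to 3760 with a library left out. The NOX4 log2 fold change was −2.08 to −1.08 with a library left out and could not be fitted with the strict filter or with only the normoxia libraries, which removed the gene. No called value changed sign, while FTH1, IFI27 and MT-CO1, near 0 and not called, did under 5, 3 and 1 alternatives. With a replicate block, 2617 genes were called in the 4-group fit, 9 against replicate 2 and 7 against every library, without GANAB. Deviations from the group means correlated at −0.01, 0.18 and 0.18 between same-numbered libraries, and at −0.21 to 0.16 between differently numbered ones. These low values do not settle whether the numbers mark pairs, and they were not taken as pairs. Of 99 named genes 3 kept their call or lack of one in every alternative of the 4-group fit, and the causes of these changes were not tested. NOX4 had 13 counts or fewer per library, which limits what could be seen of its silencing.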
